A study of Homo sapiens with 36 samples.

Results

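Histone H3 trimethylated on lysine 9 (H3K9me3) marks chromatin that is kept silent, and the 10 genes described here encode proteins that place, read or act on that mark. They were listed by name: ATF7IP and ZNF274 because earlier results of these data had shown them lower after KDM5 inhibition, and the other 8 (ATF7IP2, SETDB1, TRIM28, MPHOSPH8, TASOR, PPHLN1, MORC2 and CBX5) for their known place in the same silencing system. All 10 were matched by symbol to an Ensembl ID, out of 58302 gene IDs counted, and all 10 passed the filter on low counts in every line. Because values of the inhibitor contrast chose ATF7IP and ZNF274, their inhibitor effects are given as a description, with no test. The other 8 were tested, with p-values adjusted over all genes.

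JEKO, MINO and UPN-1 are 3 established human lines of mantle cell lymphoma, a B-cell cancer. Each was treated with GS716054, labelled as an inhibitor of the KDM5 histone demethylases, or with DMSO as the control. Total RNA was sequenced 24 h or 72 h later, with 3 libraries labelled as biological replicates in each of 12 groups, 36 libraries in all. All groups grew in RPMI-1640 medium with serum; the dose is not given in the sources used here. KDM5 enzymes remove methyl groups from lysine 4 of histone H3, a mark of active promoters, whereas the proteins described here work on lysine 9.

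SETDB1 is the methyltransferase that writes H3K9me3 on euchromatic genes and on endogenous retroviruses. ATF7IP binds SETDB1, keeps it in the nucleus and protects it from degradation, and ATF7IP2 is its paralog. TRIM28 (KAP1) brings SETDB1 to DNA that KRAB zinc finger proteins recognise. ZNF274 is one such zinc finger protein and is known to bind the 3' ends of other zinc finger genes and imprinted loci. The human silencing hub (HUSH) joins MPHOSPH8, which reads H3K9me3, with TASOR, its scaffold, and PPHLN1 (periphilin), and silences transposons and newly integrated genes. MORC2 is an ATPase that compacts chromatin for HUSH, and CBX5 (HP1 alpha) is a reader that packs H3K9me3 chromatin.

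Each library held 8784815 to 14970876 reads in genes (median 11926903), and 18615 to 24533 genes had at least 1 read. Reads per library ranged from 19 to 366 for ATF7IP2, from 74 to 460 for ZNF274 and from 339 to 1567 for ATF7IP. Values are CPM, read counts scaled to a common library size over all 36 libraries by edgeR's TMM method. B-cell genes and the mantle cell lymphoma genes CCND1 and SOX11 were present in every library (lowest CD22, 14.3 CPM, and SOX11, 63.0 CPM). The T-cell gene CD2 and the fibroblast gene COL3A1 were at 0 in all 36. The T-cell genes CD3D, CD3E and CD3G, however, reached 3.04, 4.13 and 5.71 CPM in their highest libraries. The highest level of any of the 12 T-cell, myeloid and fibroblast markers was 10.8 CPM (PDGFRB, in UPN-1). In bulk RNA, fewer expressing cells and less RNA per cell cannot be told apart. Both replicate 2 libraries of MINO at 72 h, and less so both replicate 1 libraries of JEKO at 72 h, stood apart from the others of their groups. Treated replicate 2 of JEKO at 24 h did so too. Its chi-square per gene was 33.2 and 35.0 against the other libraries of its group, which differed from each other by 6.64.

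The stretches just upstream of 4 of these genes are shown because ATF7IP, ZNF274 and MORC2 were the members whose treated libraries all lay below the DMSO libraries at 24 h in every line, and SETDB1 is the enzyme that ATF7IP binds. The motif CCGCCC, the GC box of Sp1 family factors, has also been described as the DNA sequence bound by the ARID domain of KDM5A. Binding was not measured in these data. Because inhibitor values picked the windows, the matches are a description, and a link between motif and inhibitor effect was not tested. Each sequence is the 210 bases from 250 to 41 bases before the RefSeq start (GRCh38.p14), 5' to 3' on the gene's own strand, and capitals mark CCGCCC or, from the other strand, GGGCGG. The coordinates are chr12:14365432-14365641 on the plus strand for ATF7IP, chr19:58182811-58183020 on the plus strand for ZNF274, chr22:30968815-30969024 on the minus strand for MORC2 and chr1:150926013-150926222 on the plus strand for SETDB1. None of the 4 windows overlaps its gene as annotated.
ATF7IP: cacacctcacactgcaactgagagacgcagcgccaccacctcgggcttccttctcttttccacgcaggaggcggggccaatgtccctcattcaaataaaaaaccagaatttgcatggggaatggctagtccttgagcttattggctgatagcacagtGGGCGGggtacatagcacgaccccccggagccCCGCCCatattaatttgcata
ZNF274: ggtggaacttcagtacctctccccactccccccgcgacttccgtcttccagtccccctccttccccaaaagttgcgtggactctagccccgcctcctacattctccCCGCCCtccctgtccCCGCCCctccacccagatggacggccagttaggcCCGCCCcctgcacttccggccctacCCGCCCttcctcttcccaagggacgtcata
MORC2: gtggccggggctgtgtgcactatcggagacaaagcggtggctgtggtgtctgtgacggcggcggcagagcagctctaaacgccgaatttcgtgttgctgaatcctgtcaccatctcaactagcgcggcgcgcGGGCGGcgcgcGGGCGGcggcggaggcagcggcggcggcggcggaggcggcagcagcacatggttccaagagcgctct
SETDB1: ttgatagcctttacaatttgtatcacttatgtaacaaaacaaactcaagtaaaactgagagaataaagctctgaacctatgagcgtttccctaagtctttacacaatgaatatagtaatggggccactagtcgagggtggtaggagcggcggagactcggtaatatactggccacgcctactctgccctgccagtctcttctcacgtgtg
CCGCCC, read on both strands, occurred 2 times in the ATF7IP window, 4 times in ZNF274, 2 times in MORC2 and 0 times in SETDB1. Of 35116 RefSeq starts, 37.2% held at least 1 match in the same window, 19.3% at least 2 and 4.95% at least 4. The matches lay 93 and 61 bases before the start in ATF7IP, 118 and 107 in MORC2, and 144, 129, 95 and 70 in ZNF274. MPHOSPH8, TASOR and CBX5 held 1 match each and PPHLN1 held 0, so 6 of the 8 members with an entry held the motif. All 210 bases of the PPHLN1 window lie inside that gene as annotated, so it is not a stretch upstream of the whole gene. The other motif searched, CACGTG (the E-box bound by MYC and its partners), does not overlap CCGCCC and reads the same on both strands. It occurred 1 time in SETDB1 and 2 times in CBX5, and in 5.04% of all starts. CpG dinucleotides numbered 9 in ATF7IP, 12 in ZNF274, 28 in MORC2 and 7 in SETDB1, against a median of 8 over all starts.

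ATF7IP (ENSG00000171681, chromosome 12, 14365676 to 14502931, GRCh38) was lower after the inhibitor in all 6 comparisons, most in UPN-1. In UPN-1 at 24 h the DMSO libraries held 118, 104 and 111 CPM and the treated libraries 38.9, 41.5 and 44.8 CPM. The groups lay far apart, with a log2 fold change of -1.42 (SE 0.144), or 2.67-fold lower. At 72 h in UPN-1 the DMSO libraries held 99.98, 142 and 115 CPM and the treated ones 50.5, 60.8 and 68.3 CPM. Again no treated library reached a DMSO library, and the log2 fold change was -0.98 (SE 0.141).

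In MINO at 24 h, ATF7IP held 99.6, 65.2 and 85.5 CPM in DMSO and 36.9, 45.4 and 38.0 CPM after the inhibitor, a log2 fold change of -1.09 (SE 0.187). At 72 h the DMSO libraries held 78.8, 84.8 and 85.8 CPM and the treated libraries 58.3, 41.4 and 65.3 CPM, a log2 fold change of -0.61 (SE 0.185). Every treated MINO library was below every DMSO library at both times. JEKO showed the smallest separation. At 24 h its DMSO libraries held 87.5, 85.9 and 91.2 CPM and its treated libraries 70.5, 84.9 and 78.5 CPM, so the groups only just failed to overlap, at a log2 fold change of -0.19 (SE 0.199). At 72 h its DMSO libraries spread over 49.6, 76.0 and 95.7 CPM and its treated libraries held 39.7, 52.7 and 56.4 CPM. These ranges overlapped, and the log2 fold change was -0.57 (SE 0.200). The lowest library of each JEKO group at 72 h was replicate 1. At 24 h the highest treated JEKO library was replicate 2, which stood apart from its group. With single libraries left out, the log2 fold change in JEKO at 24 h ran from -0.249 to -0.129.

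ZNF274 (ENSG00000171606, chromosome 19, 58183029 to 58213562) had lower treated means in all 6 comparisons too, but by a negligible amount in MINO at 72 h. In UPN-1 at 24 h it held 31.9, 33.5 and 33.7 CPM in DMSO and 15.9, 14.6 and 13.2 CPM after the inhibitor, a log2 fold change of -1.19 (SE 0.132). At 72 h the values were 31.5, 36.5 and 32.0 CPM in DMSO and 18.4, 21.8 and 17.9 CPM after the inhibitor, a log2 fold change of -0.76 (SE 0.128). The UPN-1 groups did not overlap at either time.

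In MINO at 24 h, ZNF274 held 23.3, 23.2 and 18.9 CPM in DMSO and 11.97, 15.4 and 9.02 CPM after the inhibitor, a log2 fold change of -0.88 (SE 0.199). At 72 h the values were 27.8, 24.5 and 24.3 CPM in DMSO and 23.4, 29.96 and 22.0 CPM after the inhibitor, a log2 fold change of -0.04 (SE 0.192). The separation at 24 h was thus gone at 72 h, when the highest treated library was replicate 2. Without both replicate 2 libraries, an alternative added after seeing the data, the log2 fold change at 72 h was -0.23. With single libraries left out it ran from -0.186 to 0.0329. In JEKO the DMSO libraries held 15.6, 12.8 and 10.6 CPM at 24 h and the treated libraries 7.52, 8.28 and 9.10 CPM, a log2 fold change of -0.66 (SE 0.203). At 72 h they held 17.9, 17.1 and 13.02 CPM in DMSO and 13.03, 9.76 and 10.5 CPM after the inhibitor, a log2 fold change of -0.53 (SE 0.198). The JEKO groups were apart at 24 h and overlapped at 72 h.

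**Figure D1:**
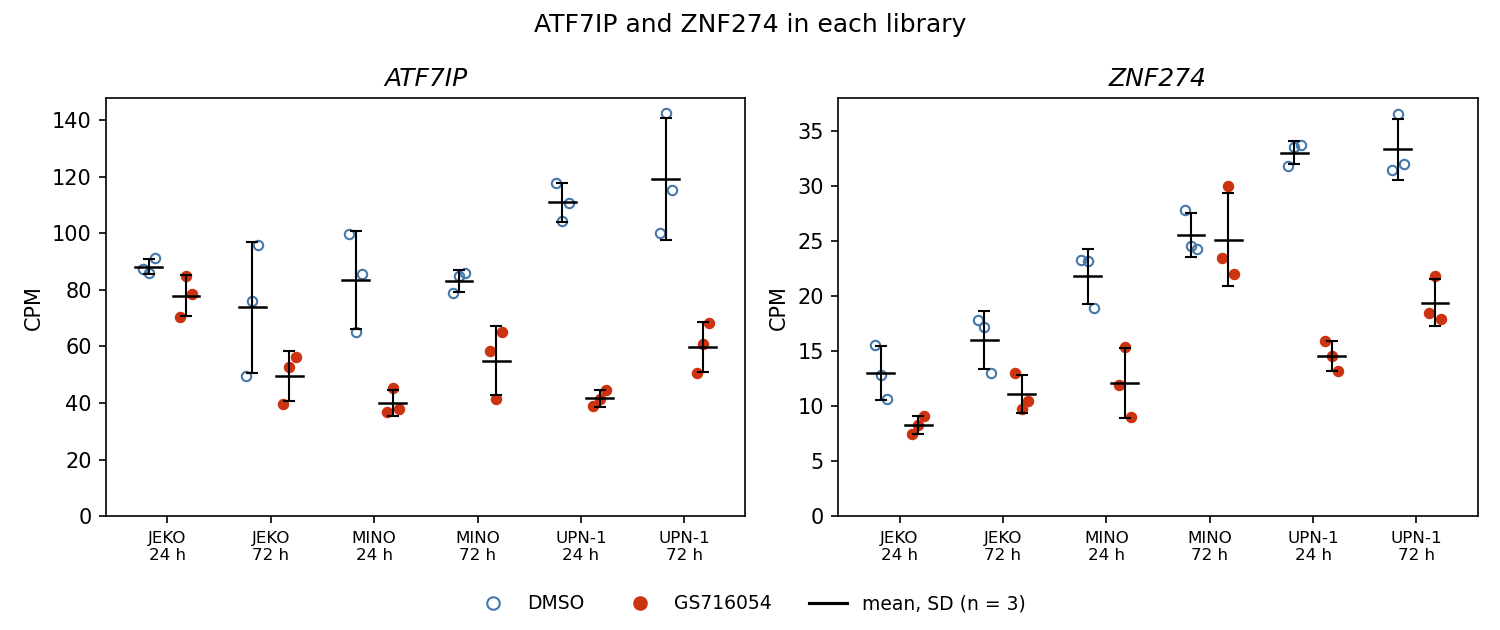
Level of ATF7IP (left) and ZNF274 (right) in CPM in every library, by line and hours after treatment; open points are DMSO, filled points GS716054, and black bars the mean and SD of 3 libraries. The UPN-1 groups are apart at both times, whereas in MINO at 72 h ZNF274 holds 25.6 ± 1.98 CPM in DMSO and 25.1 ± 4.25 CPM after the inhibitor.

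Between genes, levels are compared as CPM per kilobase of annotated exon (CPM per kb). ATF7IP in UPN-1 at 24 h held 8.44 ± 0.524 CPM per kb in DMSO (SD, n = 3) and was 6th of the 10 members. After the inhibitor it held 3.18 ± 0.226 CPM per kb and was 9th, above ZNF274, which was 10th at 1.75 ± 0.165 CPM per kb. Per length of the longest transcript it was 7th in DMSO and 9th after the inhibitor. In MINO at 24 h ATF7IP was 7th in DMSO, overlapping MORC2, and 8th after the inhibitor, but 8th in both by the longest transcript. In JEKO at 24 h it was 6th in both groups, and 8th and 7th by the longest transcript.

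SETDB1 (ENSG00000143379, chromosome 1, 150926263 to 150964744), the enzyme itself, stayed between group means of 51.5 and 69.2 CPM across all 12 groups. Its log2 fold change after the inhibitor ranged from -0.17 (UPN-1, 24 h) to 0.09 (MINO, 24 h), with SEs of 0.120 to 0.142. At 24 h in UPN-1 its DMSO libraries held 67.8, 65.3 and 63.5 CPM and the treated libraries 59.9, 54.1 and 61.8 CPM. These did not overlap, yet the difference did not pass the test (adjusted p = 1.00, edgeR quasi-likelihood). In the other 5 comparisons the groups overlapped. Of the exon bases of SETDB1, 12.9% also lie in CERS2 on the opposite strand, and the counting is not stated to have used strand.

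ATF7IP2 (ENSG00000166669, chromosome 16, 10326434 to 10483638), the paralog of ATF7IP, was scarce in JEKO. There the DMSO libraries held 6.98, 5.09 and 3.32 CPM at 24 h and the treated libraries 3.35, 2.56 and 1.60 CPM. The treated mean was lower, at a log2 fold change of -1.05 (SE 0.371), but the groups overlapped slightly and the difference did not pass the test (adjusted p = 1.00, edgeR). In MINO and UPN-1, where the gene was more abundant, its log2 fold changes were -0.24 (SE 0.181) and -0.18 (SE 0.181) in MINO at 24 h and 72 h, and -0.08 (SE 0.139) and 0.13 (SE 0.136) in UPN-1. Thus ATF7IP2 did not pass the test in any line, and in UPN-1 its treated and DMSO libraries overlapped at both times.

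TRIM28 (ENSG00000130726, chromosome 19, 58544064 to 58550722), the corepressor that links KRAB zinc finger proteins to SETDB1, had log2 fold changes from -0.28 (SE 0.158, MINO at 24 h) to 0.18 (SE 0.165, UPN-1 at 24 h). In MINO at 24 h it held 799, 746 and 997 CPM in DMSO and 723, 651 and 758 CPM after the inhibitor, so the groups overlapped. CBX5 (ENSG00000094916, chromosome 12, 54230942 to 54280133), the H3K9me3 reader, ranged from -0.20 (SE 0.245, MINO at 24 h) to 0.13 (SE 0.115, UPN-1 at 24 h). Its treated and DMSO libraries overlapped in all 6 comparisons. In JEKO at 72 h replicate 1 was the lowest library for CBX5 in both groups, at 84.8 CPM in DMSO and 96.0 CPM after the inhibitor, against 168 to 185 CPM in the other 4.

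Among the HUSH subunits, MPHOSPH8 (ENSG00000196199, chromosome 13, 19633659 to 19673441) had log2 fold changes of -0.07 to 0.12, with SEs of 0.123 to 0.142, and overlapping groups throughout. TASOR (ENSG00000163946, chromosome 3, 56620132 to 56683265, minus strand) had higher treated means in MINO and UPN-1. In UPN-1 at 24 h it held 74.1, 63.8 and 62.2 CPM in DMSO and 80.0, 81.8 and 76.9 CPM after the inhibitor, a log2 fold change of 0.25 (SE 0.111). In MINO at 24 h it held 85.0, 78.1 and 80.5 CPM in DMSO and 93.0, 95.9 and 93.5 CPM after the inhibitor, a log2 fold change of 0.18 (SE 0.126). The treated libraries were all above the DMSO libraries in both, but neither difference passed the test (edgeR adjusted p = 1.00 in UPN-1 and 0.479 in MINO).

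PPHLN1 (ENSG00000134283, chromosome 12, 42238447 to 42459715) had higher treated libraries in JEKO. At 24 h the DMSO libraries held 64.0, 63.2 and 54.6 CPM and the treated libraries 71.0, 72.2 and 64.6 CPM. At 72 h they held 36.7, 43.0 and 41.8 CPM in DMSO and 44.2, 50.1 and 54.7 CPM after the inhibitor. The groups did not overlap at either time, but the log2 fold changes of 0.18 (SE 0.13) and 0.30 (SE 0.131) did not pass the test (edgeR adjusted p = 1.00 and 0.546). In MINO and UPN-1 its log2 fold changes lay between -0.06 and 0.05 at both times.

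MORC2 (ENSG00000133422, chromosome 22, 30925130 to 30968774, minus strand), the chromatin-compacting ATPase, was the tested member with the clearest separation at 24 h. The MINO libraries at 24 h held 68.7, 60.9 and 64.0 CPM in DMSO and 43.2, 44.5 and 34.5 CPM after the inhibitor. The groups were well apart, at a log2 fold change of -0.69 (SE 0.197), but the difference missed the threshold of 0.05 (edgeR adjusted p = 0.0860). With the replicate number as a block it passed (edgeR adjusted p = 0.0418, and 0.00529 with the block set within each time, an alternative added after seeing the data). These fits called 6.61% and 15.8% of all genes. It also passed by DESeq2 (adjusted p = 0.0236; 6.5% of genes called), and over all of its alternatives, single libraries left out included, the adjusted p ran from 0.00201 to 0.254.

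In JEKO at 24 h MORC2 held 65.1, 73.9 and 71.1 CPM in DMSO and 43.7, 53.6 and 49.95 CPM after the inhibitor, without overlap. Its log2 fold change was -0.52 (SE 0.13) and did not pass (edgeR adjusted p = 0.523, and 0.0908 by DESeq2). In UPN-1 at 24 h it held 81.8, 82.2 and 84.0 CPM in DMSO and 69.6, 78.5 and 72.0 CPM after the inhibitor, a smaller shift of -0.18 (SE 0.107). At 72 h the separation was absent in JEKO, with 52.7, 65.0 and 61.2 CPM in DMSO and 55.4, 59.5 and 63.7 CPM after the inhibitor. In MINO at 72 h the treated libraries held 60.8, 58.1 and 67.2 CPM and the DMSO libraries 65.4, 35.9 and 61.5 CPM, the low one being replicate 2.

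The inhibitor effect on MORC2 at 72 h minus that at 24 h was 0.53 (SE 0.183) in JEKO and 0.87 (SE 0.277) in MINO on the log2 scale. Neither difference passed (edgeR adjusted p = 1.00 and 0.878 over all genes). Of the exon bases of MORC2, 14.9% overlap the antisense gene MORC2-AS1, so reads of both cannot be told apart without strand.

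**Figure D2:**
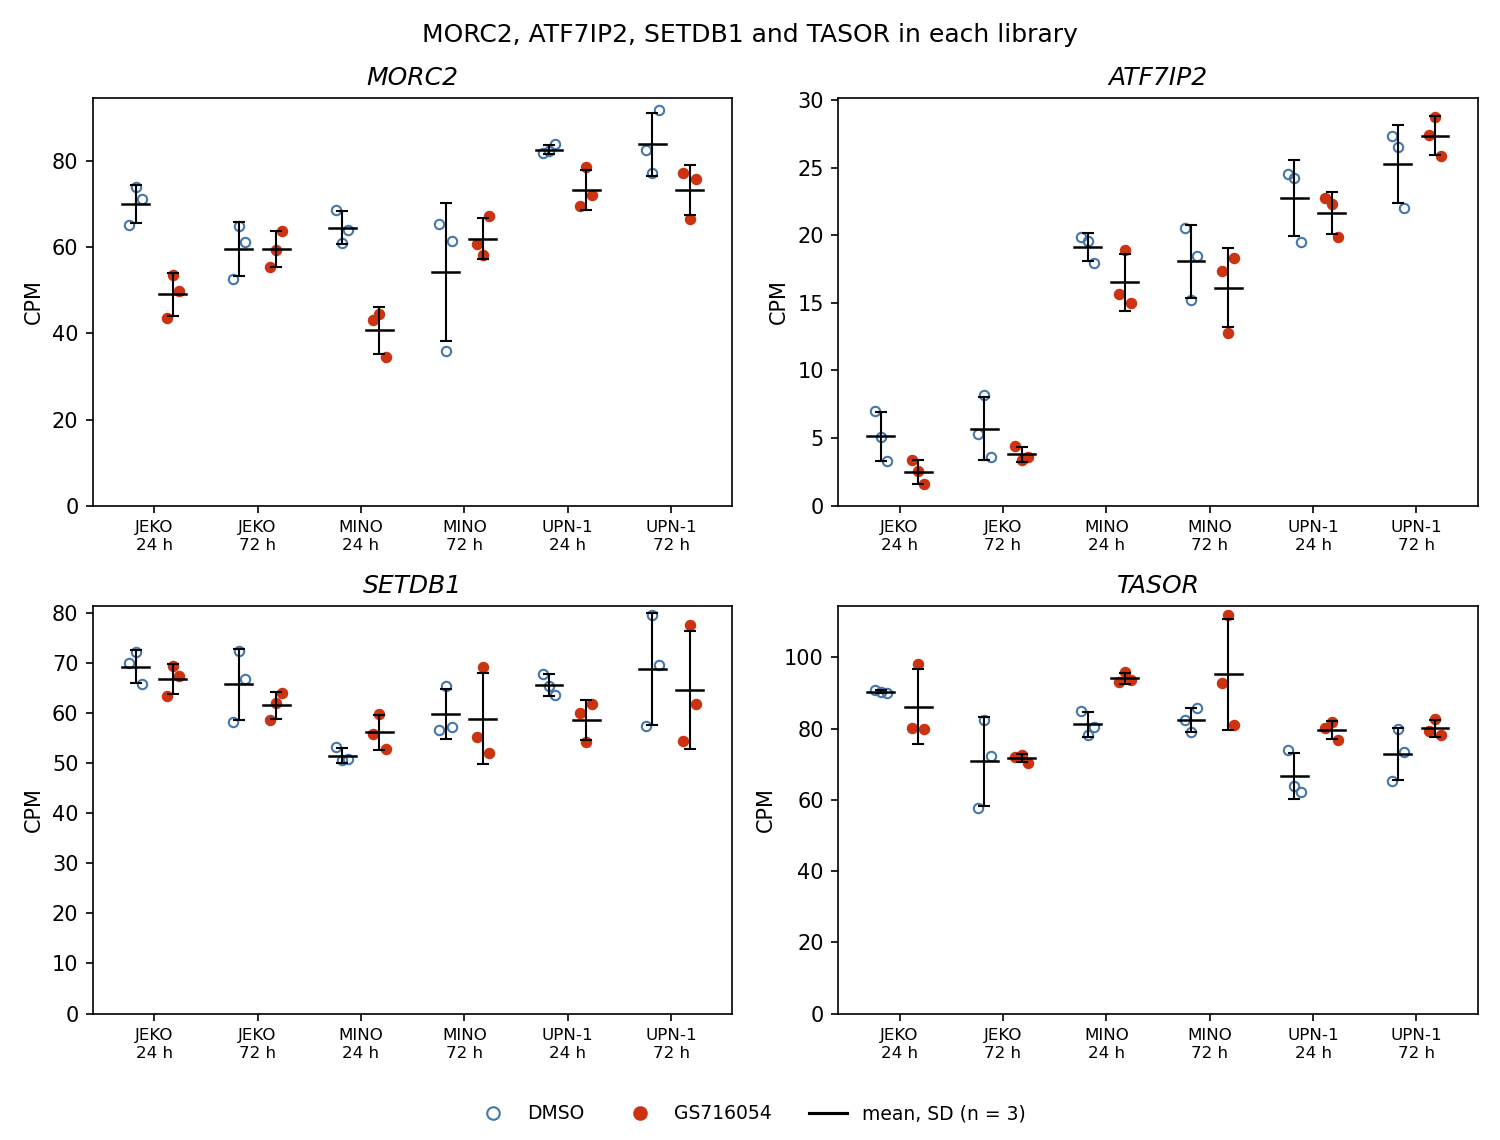
Level of MORC2, ATF7IP2, SETDB1 and TASOR in CPM in every library, by line and hours after treatment; open points are DMSO, filled points GS716054, and black bars the mean and SD of 3 libraries. At 24 h the treated MORC2 libraries lie below the DMSO libraries in each line, at means of 49.1 against 70.0 CPM in JEKO, 40.7 against 64.6 CPM in MINO and 73.4 against 82.7 CPM in UPN-1.

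Of the 8 tested members, 0 passed the test in any of the 6 inhibitor comparisons (edgeR). At an unadjusted p under 0.05 there were 2 in JEKO at 24 h (ATF7IP2 and MORC2), 1 in JEKO at 72 h (PPHLN1), 1 in MINO at 24 h (MORC2), 1 in UPN-1 at 24 h (TASOR) and 0 in the other 2 comparisons. By DESeq2, MORC2 in MINO at 24 h was called. Over all genes, 0.018% of 16690 passed in JEKO at 24 h and 0.3% at 72 h, 2.39% of 15028 in MINO at 24 h and 5.56% at 72 h, and 0.0262% of 15248 in UPN-1 at 24 h and 0.334% at 72 h. In most of these comparisons few genes of any kind were called, so a count of 0 among 8 lies near the background. The median log2 fold change of the 8 was -0.06, -0.03, -0.11, 0.02, -0.02 and 0.05 in JEKO, MINO and UPN-1 at 24 h and 72 h in turn, beside medians over all genes of -0.01, 0.00, 0.01, -0.03, 0.00 and 0.00.

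Treated libraries lay wholly below DMSO for 3 of 10 members in JEKO at 24 h (ATF7IP, ZNF274 and MORC2; 5.51% of all genes) and for the same 3 in MINO at 24 h (15.2% of all genes). They did so for 4 in UPN-1 at 24 h (these 3 and SETDB1; 6.96% of all genes). At 72 h the counts were 0 in JEKO (4.81%), 1 in MINO (ATF7IP; 10%) and 2 in UPN-1 (ATF7IP and ZNF274; 3.79%). Wholly above DMSO lay PPHLN1 in JEKO at 24 h (7.03% of all genes) and at 72 h (6.51%), and TASOR in MINO (19.9%) and UPN-1 (7.82%) at 24 h. Since ATF7IP and ZNF274 were chosen from this contrast, nothing is read from the counts that hold them.

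Whether the inhibitor effect differed among the lines was tested for the 8 members over all 36 libraries. At 24 h 0 members passed (lowest edgeR adjusted p = 0.519, ATF7IP2; 19 of 17980 genes passed). At 72 h 0 members passed (lowest adjusted p = 0.613, PPHLN1; 182 genes passed). At an unadjusted p under 0.05 there was 1 member at 24 h and 0 at 72 h.

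**Figure D3:**
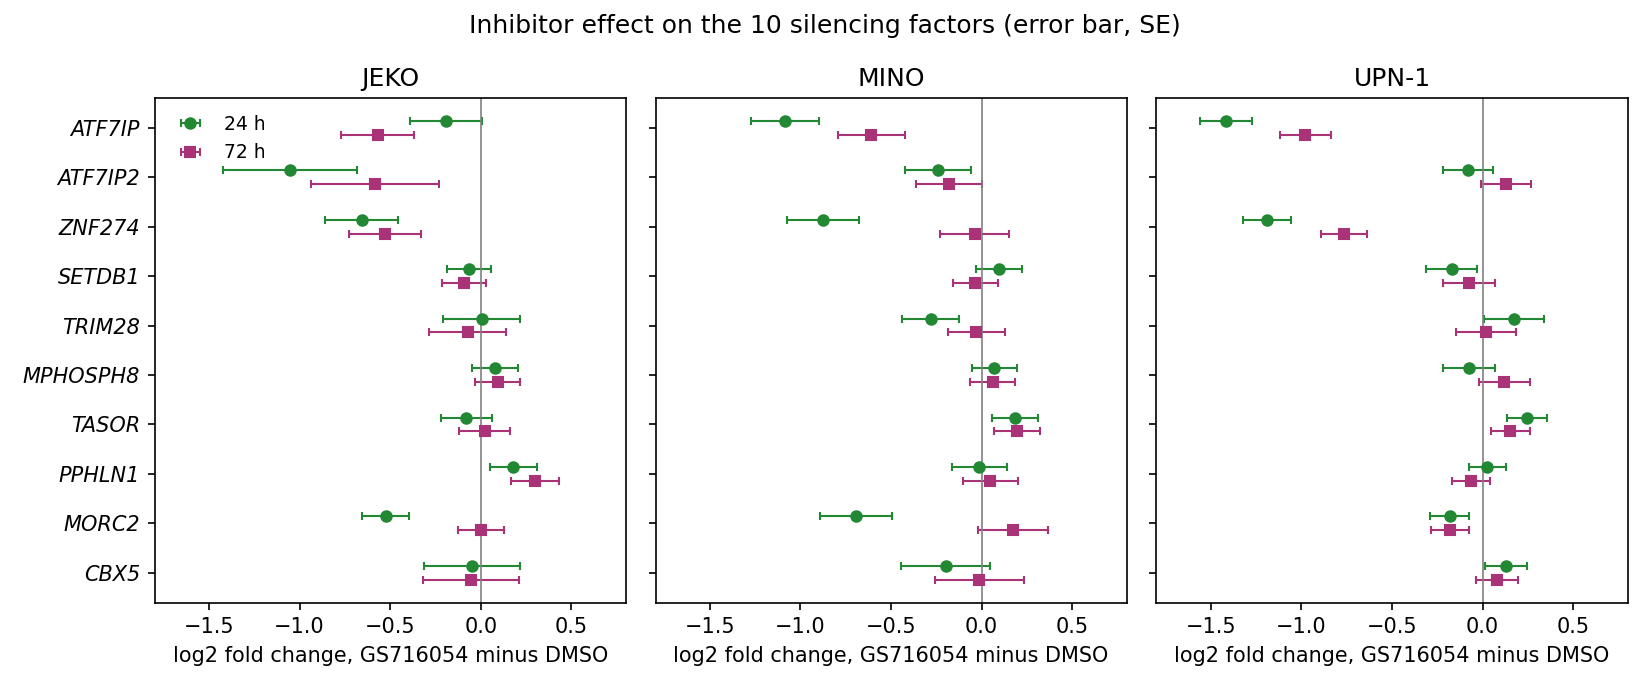
Log2 fold change of GS716054 against DMSO for the 10 members in each line, with circles for 24 h, squares for 72 h and bars for the SE. ATF7IP and ZNF274 lie to the left of 0, down to -1.42 for ATF7IP in UPN-1, and SETDB1 and MPHOSPH8 stay between -0.17 and 0.12.

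The 3 lines differed in their levels of these genes without inhibitor. This contrast between lines did not choose the members. Its DMSO libraries were, however, also the controls in the inhibitor contrast that chose ATF7IP and ZNF274. ATF7IP2 held 22.7 ± 2.81 CPM in UPN-1, 19.2 ± 1.04 in MINO and 5.13 ± 1.83 in JEKO (DMSO, 24 h, SD, n = 3). It was higher than in JEKO by 1.90 on the log2 scale in MINO (edgeR adjusted p = 7.57e-08) and by 2.15 in UPN-1 (adjusted p = 8.89e-09). MINO and UPN-1 did not differ by the test (log2 0.25, SE 0.222, adjusted p = 0.394).

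ZNF274 followed the order JEKO (13 ± 2.47 CPM), MINO (21.8 ± 2.49) and UPN-1 (33.0 ± 1.02), with no overlap between neighbours. UPN-1 exceeded JEKO by 1.35 (SE 0.175, edgeR adjusted p = 1.51e-07) and MINO by 0.60 (SE 0.171, adjusted p = 0.00473) on the log2 scale. ATF7IP differed less between lines. It held 111 ± 6.89 CPM in UPN-1, 88.2 ± 2.70 in JEKO and 83.5 ± 17.3 in MINO, and no pair of lines passed the test (lowest edgeR adjusted p = 0.0718, UPN-1 against MINO).

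UPN-1 also held the most MPHOSPH8, 111 ± 1.88 CPM against 57.7 ± 4.41 in MINO and 47.2 ± 5.02 in JEKO, a log2 difference from JEKO of 1.23 (SE 0.129, edgeR adjusted p = 2.88e-09). CBX5 held 593 ± 36.3 CPM in UPN-1, 390 ± 70.1 in MINO and 225 ± 14.7 in JEKO, with a log2 difference of 1.40 (SE 0.235, adjusted p = 1.07e-05) between UPN-1 and JEKO. TRIM28 held 1064 ± 79.2, 847 ± 132 and 603 ± 133 CPM in UPN-1, MINO and JEKO, and PPHLN1 110 ± 7.003, 87.6 ± 2.10 and 60.6 ± 5.20 CPM. Both were higher in UPN-1 than in JEKO (edgeR adjusted p = 0.000535 and 9.61e-07).

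TASOR ran the other way, at 66.7 ± 6.49 CPM in UPN-1, 81.2 ± 3.51 in MINO and 90.3 ± 0.419 in JEKO. UPN-1 was lower than JEKO by the test (log2 -0.44, SE 0.121, edgeR adjusted p = 0.00365), but with the 72 h DMSO libraries the difference was 0.04 (SE 0.121). SETDB1 was lowest in MINO, at 51.5 ± 1.41 CPM against 69.2 ± 3.25 in JEKO (log2 -0.43, SE 0.129, adjusted p = 0.00648). This too did not pass with the 72 h libraries (log2 -0.14, adjusted p = 0.374).

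In total 6 of 10 members passed between MINO and JEKO, where 48% of 17980 genes passed. Of these, 5 were higher in MINO (22% of genes). Between UPN-1 and JEKO 7 passed (44.9% of genes), 6 of them higher in UPN-1 (21.2% of genes). Between UPN-1 and MINO 6 passed (44.4% of genes), all 6 higher in UPN-1 (23.3% of genes). The last count depended on single libraries: it fell to 2 without MINO replicate 2 and to 3 without MINO replicate 3 or any 1 of the UPN-1 replicates. So many genes of all kinds passed that these counts do not set the members apart.

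**Figure D4:**
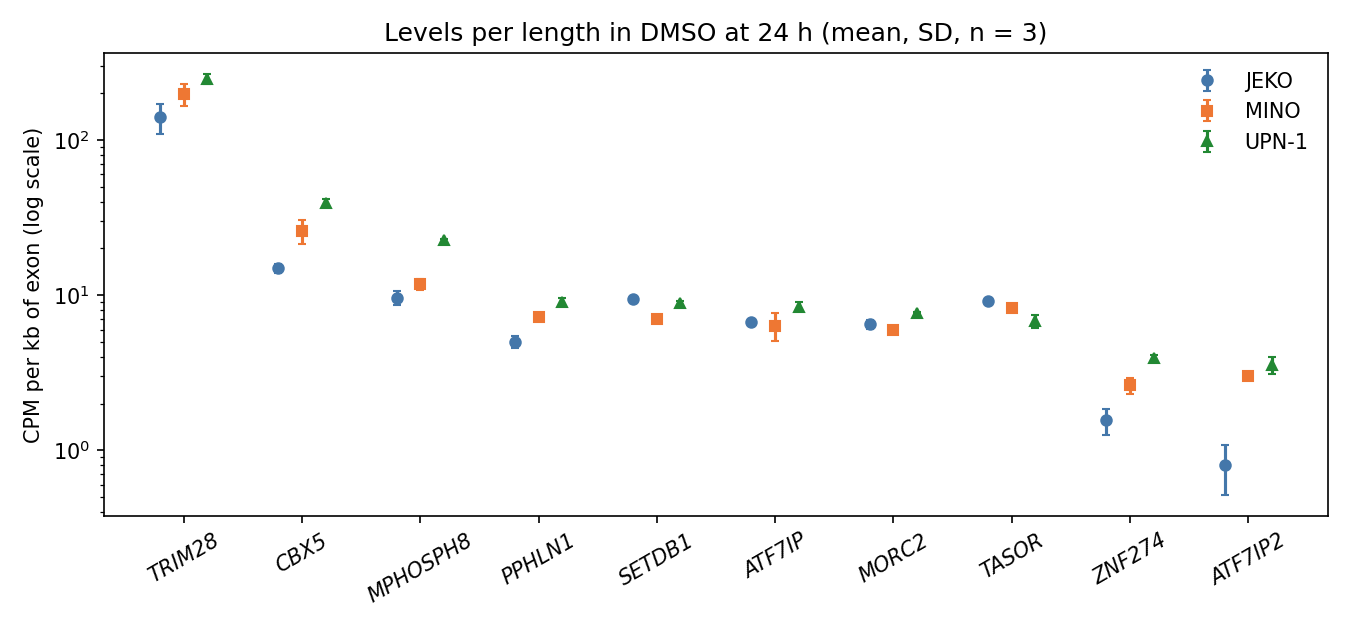
CPM per kb of exon (log scale) for the 10 members in DMSO at 24 h, as mean and SD of 3 libraries, with circles for JEKO, squares for MINO and triangles for UPN-1. TRIM28 is highest in each line, at 140, 197 and 247 CPM per kb, and ZNF274 and ATF7IP2 are lowest.

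Per length, TRIM28 was the most abundant member in all 12 groups, from 93.7 ± 21.2 CPM per kb (JEKO, inhibitor, 72 h) to 281 ± 29.9 (UPN-1, inhibitor, 24 h). At 24 h CBX5 came next in every group, at 14.9 ± 0.975, 26.0 ± 4.66 and 39.4 ± 2.41 CPM per kb in DMSO in JEKO, MINO and UPN-1. MPHOSPH8 was the third in each line in DMSO at 24 h, apart from CBX5 in all 3 and, in JEKO, overlapping SETDB1. SETDB1, TASOR, PPHLN1, ATF7IP and MORC2 lay between 4.99 and 9.38 CPM per kb. Within that range PPHLN1, SETDB1 and ATF7IP overlapped in sequence in UPN-1 and, with MORC2, in MINO. ZNF274 and ATF7IP2 held the last 2 places, 1.56 and 0.803 CPM per kb in JEKO, 2.62 and 3.00 in MINO, and 3.96 and 3.56 in UPN-1, where their libraries overlapped. Over the longest annotated transcript in place of all exons, TRIM28, CBX5, ZNF274 and ATF7IP2 kept these places in each line. The 6 members between them changed order in JEKO and MINO, whereas in UPN-1 only ATF7IP and MORC2 changed places.

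Over culture time in DMSO, PPHLN1 fell in JEKO from 60.6 ± 5.20 CPM at 24 h to 40.5 ± 3.36 CPM at 72 h (log2 -0.58, SE 0.132, edgeR adjusted p = 0.00583). It was the only 1 of the 10 members to pass there, where 31.7% of all genes passed, 14.6% as lower. TRIM28, TASOR, MORC2 and CBX5 also had all 72 h libraries below the 24 h libraries in JEKO (5 of 10 members with PPHLN1, and 25% of all genes). In MINO 0 members passed (0.0932% of genes; 2 of the 8 at an unadjusted p under 0.05, and 0 by DESeq2, which called 7.41%) and in UPN-1 0 passed (1.47% of genes; 0 at an unadjusted p under 0.05, and 0 by DESeq2, which called 6.73%). ATF7IP and ZNF274 did not pass in any line: their log2 differences lay between -0.26 and 0.11, and between 0.02 and 0.30.

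Across all 36 libraries, after each gene was centred within line and time, the gene most like ATF7IP was GRK2, a kinase of G-protein-coupled receptors (r = 0.746), followed by TBCCD1 (r = 0.743) and ACSL5, an acyl-CoA synthetase (r = 0.732). ZNF274 was the fourth of 12884 genes (r = 0.728). For ZNF274 the closest genes were ERAP2, a peptidase that trims antigenic peptides (r = 0.756), and the zinc finger genes ZNF605 (r = 0.747) and ZNF141 (r = 0.741), with ATF7IP the fifth. These r values describe libraries that share lines, times and treatment, and they carry no test. ATF7IP and ZNF274 were both chosen for being lower after the inhibitor, and that difference remains in every r given here. Nothing is therefore read from their rank to each other or from the ranks of other genes to them. Of the other members MORC2 was nearest, at r = 0.458 to ATF7IP (rank 566) and 0.540 to ZNF274 (rank 84). TASOR had the most negative values, -0.453 and -0.361.

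Genes next to ATF7IP and ZNF274 were read for comparison. The nearest tested genes to ATF7IP start 201.7 kb (PLBD1-AS1) and 202.2 kb (PLBD1, a phospholipase B-like protein) downstream. PLBD1 had log2 fold changes after the inhibitor of 0.10 and 0.17 in UPN-1, 0.01 and -0.26 in MINO and -0.25 and 0.21 in JEKO at 24 h and 72 h, and neither gene passed the test in any of them. ZNF274 lies in a cluster of zinc finger genes. ZNF329, 27.9 kb upstream, had log2 fold changes of -0.23, -0.57, -0.19, -0.19, -0.30 and -0.17 in JEKO, MINO and UPN-1 at 24 h and 72 h in turn, all without passing. ZSCAN18, 64.6 kb upstream and tested in JEKO and UPN-1, and ZNF8-DT, 95.8 kb downstream, did not pass in any comparison either. ZNF544, 45.6 kb downstream, passed in MINO at 24 h, where 2.39% of all genes passed. It fell from 14.4 ± 1.69 to 8.06 ± 1.81 CPM (log2 -0.86, SE 0.203, edgeR adjusted p = 0.0447). Without any 1 of the 6 libraries it did not pass (adjusted p = 0.0896 to 0.173). In the other 5 comparisons its log2 fold changes were -0.27 to 0.17, and none passed.

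Other genes of H3K9 methylation were read as lists chosen by function. Of 26 further writers, readers and partners, 24 or 25 were tested in each line, and 1 passed in 1 comparison. In that comparison, MINO at 72 h, 5.56% of all genes passed. RESF1, a regulator of retroelement silencing that works with SETDB1, rose in MINO at 72 h from 80.6 ± 9.18 to 120 ± 9.93 CPM (log2 0.56, SE 0.129, edgeR adjusted p = 0.0256). It did not pass without treated replicate 1 or without DMSO replicate 1 (highest adjusted p = 0.104), nor with only the 6 libraries compared (adjusted p = 0.167). Median log2 fold changes of this list were -0.08 to 0.03, beside -0.03 to 0.01 over all genes. Of 11 H3K9 demethylases 0 passed in any comparison, with medians of -0.07 to 0.08. KDM5A, KDM5B and KDM5C, the targets of the inhibitor, did not pass in any of the 6 comparisons, with list medians of -0.01 to 0.32.

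Classes of genes that include known targets of these proteins were read next, without a choice of the known targets within each class. On chromosome 19, apart from ZNF274 itself, 239 protein-coding ZNF genes were listed, of which 216 were tested in UPN-1, 198 in JEKO and 168 in MINO. In JEKO and UPN-1 0 passed at either time, where 0.018% to 0.334% of all genes passed. In MINO 3 of 168 passed at 24 h (2.39% of all genes) and 2 of 168 at 72 h (5.56% of all genes). Neither count lies above the background. At 24 h ZNF575 rose (log2 0.74, edgeR adjusted p = 0.0385), and ZNF121 and ZNF544 fell (log2 -1.09 and -0.86, adjusted p = 0.0258 and 0.0447). ZNF575 and ZNF544 did not pass without any 1 of the 6 libraries, and ZNF121 passed only without DMSO replicate 1. At 72 h ZNF416 (log2 1.10) and ZNF101 (log2 1.02) rose (adjusted p = 0.0113 and 0.00988), and both passed with each single library left out. With only the 6 libraries compared, neither passed (adjusted p = 0.125 and 0.088). The median log2 fold change of the ZNF genes was 0.00 and -0.10 in JEKO, 0.00 and 0.13 in MINO, and -0.08 and -0.07 in UPN-1 at 24 h and 72 h. The share of them above 0 was 51.5% and 35.4% in JEKO, 48.8% and 71.4% in MINO, and 31.9% and 39.4% in UPN-1, beside 47.3% to 50.7% of all genes. The share above 0 thus lay above the background in MINO at 72 h and below it in JEKO at 72 h and in UPN-1 at both times. These shares carry no error and were not tested. Those at 72 h include the MINO and JEKO libraries that stood apart from their groups.

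Few genes of the other classes were expressed enough to test. Of 10 endogenous retroviral genes with a name, 3 or 4 were tested in each line and 0 passed. Of 8 imprinted transcripts of 15q11 2 to 4 were tested and 0 passed, and of 53 clustered protocadherins 12 were tested in UPN-1, 4 in JEKO and 0 in MINO, of which 0 passed. Reads in repeats outside annotated genes were not analysed here.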

How the data were processed

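RNA sequencing of 36 libraries was deposited as raw read counts per gene, 1 table per library. The authors aligned reads with HISAT2 2.2.1 to GRCh38 and counted them with HTSeq 0.13.5, per the submitters' processing notes; the annotation release and the strand option are not given in the sources used here. Of each library's reads or read pairs, 40.7 to 44.9% lay in genes and 43.3 to 45.9% in no feature; the 5 summary lines of each table were left out of library sizes and tests. Gene names came from GENCODE release 44, which held 57532 of the 58302 IDs (770 had no match). Labels gave each group 3 biological replicates, without saying whether these were separate cultures, so p-values measure the spread between these libraries. Libraries of a group differed by more than sampling noise (chi-square per gene of 3.20 to 86.5 over 36 pairs), so none was counted as a copy.

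Each line's 12 libraries were fitted with edgeR 4.0.16 (R 4.3.3; TMM, filterByExpr with a minimum count of 10, quasi-likelihood test, Benjamini-Hochberg adjustment over all 15028 to 16690 genes tested), and a difference was called at an adjusted p under 0.05. Differences between lines used all 36 libraries (17980 genes). The fits were also run on simulated counts drawn independently for each library, without the shared replicate deviations described below. The outcome is not given here, and nothing is read from it. DESeq2 1.42.0, other scalings and filters, other sets of libraries, the replicate block and leaving out each library were tried as alternatives. Same-numbered DMSO and treated libraries deviated together from their group means in 5 of 6 comparisons (every r above 0.1, from 0.107 to 0.593), and in JEKO at 24 h r was 0.0552 to 0.213; the labels do not state a pairing. The 10 members and all lists were chosen with earlier results of these data known. All members are named; from each list, at most the 3 called genes with the largest log2 change per comparison, the nearest 2 tested neighbours on each side, and the 3 genes with the highest r over 36 libraries (mean log2 CPM of at least 1). Upstream sequences are from RefSeq (GRCh38.p14), at the listed start nearest the GENCODE start, and 8 of 10 members had an entry; those of ATF7IP2 and TRIM28 are not shown.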

Additional observations from a re-analysis of the deposited data

How the results depend on the processing

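For the inhibitor, counts of members called are given for the 8 tested members only, because this contrast chose ATF7IP and ZNF274. In JEKO the count was 0 at 24 h and at 72 h under every alternative. In MINO at 24 h it was 0. It was 1 (MORC2) with no low-count filter, by DESeq2, with either replicate block, with only the 6 libraries compared and over all 36. The replicate block set within each time was an alternative chosen after seeing the data. MORC2 was not called with any single library left out. In MINO at 72 h the count was 0 under every alternative. In UPN-1 it was 0 at 24 h and at 72 h under every alternative. For DMSO over time the JEKO count was 1 of 10 members (31.7% of all genes). It was 4 with the replicate block (TRIM28, TASOR, PPHLN1 and CBX5), which called 36.8% of all genes, and 1 to 2 with single libraries left out. The MINO count was 0, and 1 (CBX5) with the replicate block (12.1% of all genes). Between UPN-1 and MINO the count was 6 of 10 (44.4% of all genes), and 8 with the replicate block (46.9% of all genes). The block added TRIM28 and TASOR, TASOR as lower in UPN-1. The count was 5 with the 72 h DMSO libraries and 2 to 5 with single libraries left out. The difference of TASOR between UPN-1 and JEKO reversed to 0.0391 with the 72 h DMSO libraries. Apart from the inhibitor effects of ATF7IP and ZNF274, the replicate block changed no call of a member other than those given here. The cause of these changes was not tested. Depth limits ATF7IP2 and ZNF274 most, at 19 and 74 reads in their lowest libraries.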
